A study of Mus musculus with 20 samples.

Results

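Nodal, Lefty1, Lefty2, Cited1, Follistatin (Fst) and the genes of the activin β chains Inhba, Inhbb, Inhbc and Inhbe were followed by RNA sequencing in mouse liver tumors and control livers. These 9 genes are secreted ligands of the Nodal and activin branch of TGFβ signaling, their extracellular inhibitors, and a transcriptional coactivator. They were picked by symbol among the 50559 genes of the deposited count tables, and all 9 had a row. Nodal, Cited1, Inhba and Inhbb were known beforehand to differ in the comparison of Aldafermin+MYC and FGF19+MYC tumors with sgTrp53+MYC tumors, so this comparison is described for the 9 genes without a test.

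Nodal and the activins bind paired type I and type II receptor kinases, which phosphorylate SMAD2 and SMAD3. These proteins join SMAD4 and enter the nucleus, where DNA-binding partners such as FOXH1 and coactivators select the target genes. Nodal needs a co-receptor of the Cripto family and is antagonized by the Lefty proteins, whereas Follistatin traps activins outside the cell. Nodal patterns the early embryo and is silent in most adult tissues, while activins C and E, products of Inhbc and Inhbe, are made mainly by hepatocytes.

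Tumors had been induced in wild-type C57BL/6J mice, females by the study's methods, by hydrodynamic gene transfer, in which plasmids injected rapidly into the tail vein reach hepatocytes and a Sleeping Beauty transposase inserts them into the genome. The groups were 5 tumors with human FGF19, the gut hormone that represses bile acid synthesis, together with MYC (FGF19+MYC), 5 with its analog Aldafermin, which differs from the hormone by a deletion and substitutions at the N-terminus, together with MYC (Aldafermin+MYC), 5 with a CRISPR guide against Trp53 together with MYC (sgTrp53+MYC), and 5 livers without a tumor. All 3 tumor groups carried MYC and none of the groups used here carried MYC alone. The labels of the sgTrp53+MYC tumors name no agent as treatment, and this condition was read from the titles. The control livers are non treated by the labels and had received an RFP plasmid by the study's methods. No age is given in the labels. The study's methods give the age at injection, and livers were collected when signs of tumors appeared or at preset endpoints. The age at collection may therefore differ between groups. Each tumor came from its own mouse by the study's methods.

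The number of reads counted on genes was 18004977 to 44427184 per library in Aldafermin+MYC tumors, FGF19+MYC tumors and livers, and 54042455 to 66354724 in sgTrp53+MYC tumors. The sgTrp53+MYC libraries made up a separate table, and what sets this table apart cannot be told apart from what sets the group apart. In these libraries, 12.9% ± 1.56 (SD, n = 5) of reads fell on more than one gene, against 4.81% ± 0.621 with Aldafermin+MYC, 4.74% ± 1.23 with FGF19+MYC and 4.48% ± 0.783 in livers (SD, n = 5 each). Reads without an alignment made up 5.87% ± 0.575, against 20.6% ± 3.33, 26.4% ± 4.99 and 23.6% ± 4.49 in the same order. Alignments of too low quality made up 6.80% ± 1.08, against 13.5% ± 0.767, 13.2% ± 1.29 and 10.9% ± 1.67 (SD, n = 5 each). Trp53, the targeted gene, had 18.7 to 79.9 CPM, the read count scaled to library depth, in sgTrp53+MYC tumors, below the 90.8 to 176 CPM of Aldafermin+MYC and the 110 to 155 CPM of FGF19+MYC tumors, and 28.8 to 36.4 CPM in livers. All 8 hepatocyte markers examined (Alb, Apoa1, Ttr, Cps1, Serpina1c, Hnf4a, Cyp2e1 and Pck1) exceeded a mean of 1 CPM in every group. Their summed level was 8620 to 22500 CPM in Aldafermin+MYC, 9430 to 29600 in FGF19+MYC and 3800 to 11000 in sgTrp53+MYC tumors, against 184000 to 233000 in livers. On the first principal component, Aldafermin+MYC replicate 4 and FGF19+MYC replicate 5 were the tumors of their groups nearest the livers. CPM values here are scaled by edgeR's TMM factors, and differences between groups are log2 fold changes from edgeR's quasi-likelihood test over 14333 genes, with Benjamini-Hochberg adjustment and a threshold of 0.05.

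To show the DNA in front of 3 genes whose levels separated the groups, sequences upstream of the start are given 5′ to 3′ on the gene's strand, from RefSeq promoters (GRCm38.p6) matched exactly to GRCm39 and shortened to the bases before the annotated gene. Each is preceded by its position. Capitals mark matches, on either strand, to the SMAD core CAGAC, the FOXH1 motif AATCCACA, the E-box CACGTG or the p53 half-site. The first sequence belongs to Nodal on the plus strand, the second to Cited1 on the minus strand, and the third to Inhbc on the minus strand.
Nodal, chr10:61253501-61253586: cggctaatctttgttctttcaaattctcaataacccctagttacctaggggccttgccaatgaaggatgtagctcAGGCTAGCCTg
Cited1, chrX:101295804-101296037: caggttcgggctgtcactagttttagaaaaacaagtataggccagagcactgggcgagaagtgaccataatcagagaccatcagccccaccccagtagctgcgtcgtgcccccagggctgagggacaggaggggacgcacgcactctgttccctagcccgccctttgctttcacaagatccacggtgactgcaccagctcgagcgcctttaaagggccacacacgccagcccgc
Inhbc, chr10:127206431-127206667: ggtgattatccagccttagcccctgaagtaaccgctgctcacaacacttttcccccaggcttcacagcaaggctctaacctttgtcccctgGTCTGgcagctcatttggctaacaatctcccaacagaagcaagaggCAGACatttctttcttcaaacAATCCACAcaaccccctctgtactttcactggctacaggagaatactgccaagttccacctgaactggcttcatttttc
The Nodal stretch held 1 p53 half-site, which reads as one on both strands, 175 bases before the RefSeq start. Matches were sought in whole windows of 250 bases, of which 86 are printed for Nodal. Among 32851 RefSeq windows of that full length, 7.13% held such a half-site. No match to the 4 motifs was found in the Cited1 stretch, of which 90 bases lie in an exon of another gene. Cited1 has 2 further RefSeq windows, which lie within the annotated gene and are not printed. Each held the SMAD core at 2 places, 228 and 67 bases before its start in window 2 and 244 and 116 bases in window 3. The Inhbc stretch held the FOXH1 motif 92 bases and the SMAD core 113 and 159 bases before the start. Over the same windows, 0.718% held the FOXH1 motif, 42.2% the SMAD core and 6.02% the E-box. The window of Inhba, a gene whose level in livers also lay above all tumors, held none of the 4 motifs and is not printed. These are matches of letters only.

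Nodal, on chromosome 10 of GRCm39 from 61253587 to 61261117, encodes the ligand for which the pathway is named. In Aldafermin+MYC tumors its level was 8.09, 2.06, 6.38, 1.00 and 7.10 CPM in replicates 1 to 5. In FGF19+MYC tumors it was 2.01, 1.13, 1.39, 3.55 and 3.23 CPM. The sgTrp53+MYC tumors had 0.247, 0.140, 0.0692, 0.762 and 0.0614 CPM, and the livers 0.646, 0.330, 0.221, 0.342 and 0.199 CPM. Every tumor with the hormone or its analog thus lay above every liver and every sgTrp53+MYC tumor, whereas the latter 2 groups overlapped, as did Aldafermin+MYC with FGF19+MYC. Livers held only 5 to 9 Nodal reads per library and sgTrp53+MYC tumors 4 to 56. Nodal reached 1 CPM in the 10 Aldafermin+MYC and FGF19+MYC tumors and in no other library, so it passed the filter on low counts through the tumors for whose high level it had been noticed, and their difference from livers is described without a test. The log2 fold change was 3.30 ± 0.67 (SE), or 9.87-fold. The sgTrp53+MYC tumors differed from livers by -0.39 ± 0.70 (SE, 95% interval -1.87 to 1.10, adjusted p = 0.635). Without sgTrp53+MYC replicate 4, the tumor with 0.762 CPM, this value was -1.37 (adjusted p = 0.0698), and on library totals it was 0.46, of opposite sign. Relative to sgTrp53+MYC tumors the log2 fold change was 3.69 ± 0.65 (SE), a value of the comparison in which Nodal had been noticed. The tumor with the least Nodal in its group, Aldafermin+MYC replicate 4, also had the highest hepatocyte marker sum of that group, 22500 CPM, while FGF19+MYC replicate 5 had 3.23 CPM of Nodal with 29600 CPM of the markers. The part of these cells in the result was not tested.

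Cited1, on chromosome X from 101290985 to 101295803, encodes a coactivator that binds CBP and p300 and can act with SMAD4. Its CPM was 25.9, 9.95, 27.3, 7.88 and 9.85 in Aldafermin+MYC tumors. It was 1.23, 4.77, 2.24, 1.12 and 1.48 in FGF19+MYC tumors. In sgTrp53+MYC tumors it was 0, 0.210, 0.415, 0.395 and 0.261, and the 5 livers held 4 reads in all, of which 3 were in replicate 2 and 1 in replicate 4. The groups therefore ordered without overlap from Aldafermin+MYC over FGF19+MYC to both other groups, while sgTrp53+MYC tumors and livers overlapped. Because of the 4 liver reads, ratios of summed counts, scaled for depth, are given with exact Poisson intervals, which cover counting error only. The level relative to livers was 437-fold in Aldafermin+MYC tumors (95% interval 170 to 1600), 56.3-fold in FGF19+MYC tumors (21.7 to 208) and 7.03-fold in sgTrp53+MYC tumors (2.66 to 26.3). Like Nodal, Cited1 reached 1 CPM in the 10 Aldafermin+MYC and FGF19+MYC tumors and nowhere else, and their difference from livers is likewise described without a test. In the fit, whose value depends on the prior count, the log2 fold change against livers was 7.17 ± 0.91 (SE) for the mean of these tumors, and 2.67 ± 0.99 (SE, adjusted p = 0.0222) for sgTrp53+MYC tumors. Without liver replicate 2, which held most of the liver reads, the values were 8.47 and 3.97. The call of sgTrp53+MYC tumors against livers was lost without liver replicate 3 (adjusted p = 0.0562) and without liver replicate 5 (adjusted p = 0.0591). It rested on 0 to 36 reads per sgTrp53+MYC library and 0 to 3 per liver. For this comparison, Cited1 passed the filter only through tumors outside it. Relative to sgTrp53+MYC tumors, Cited1 was higher in the mean of the other tumors by a log2 fold change of 4.50 ± 0.68 (SE), again described without a test.

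**Figure D1:**
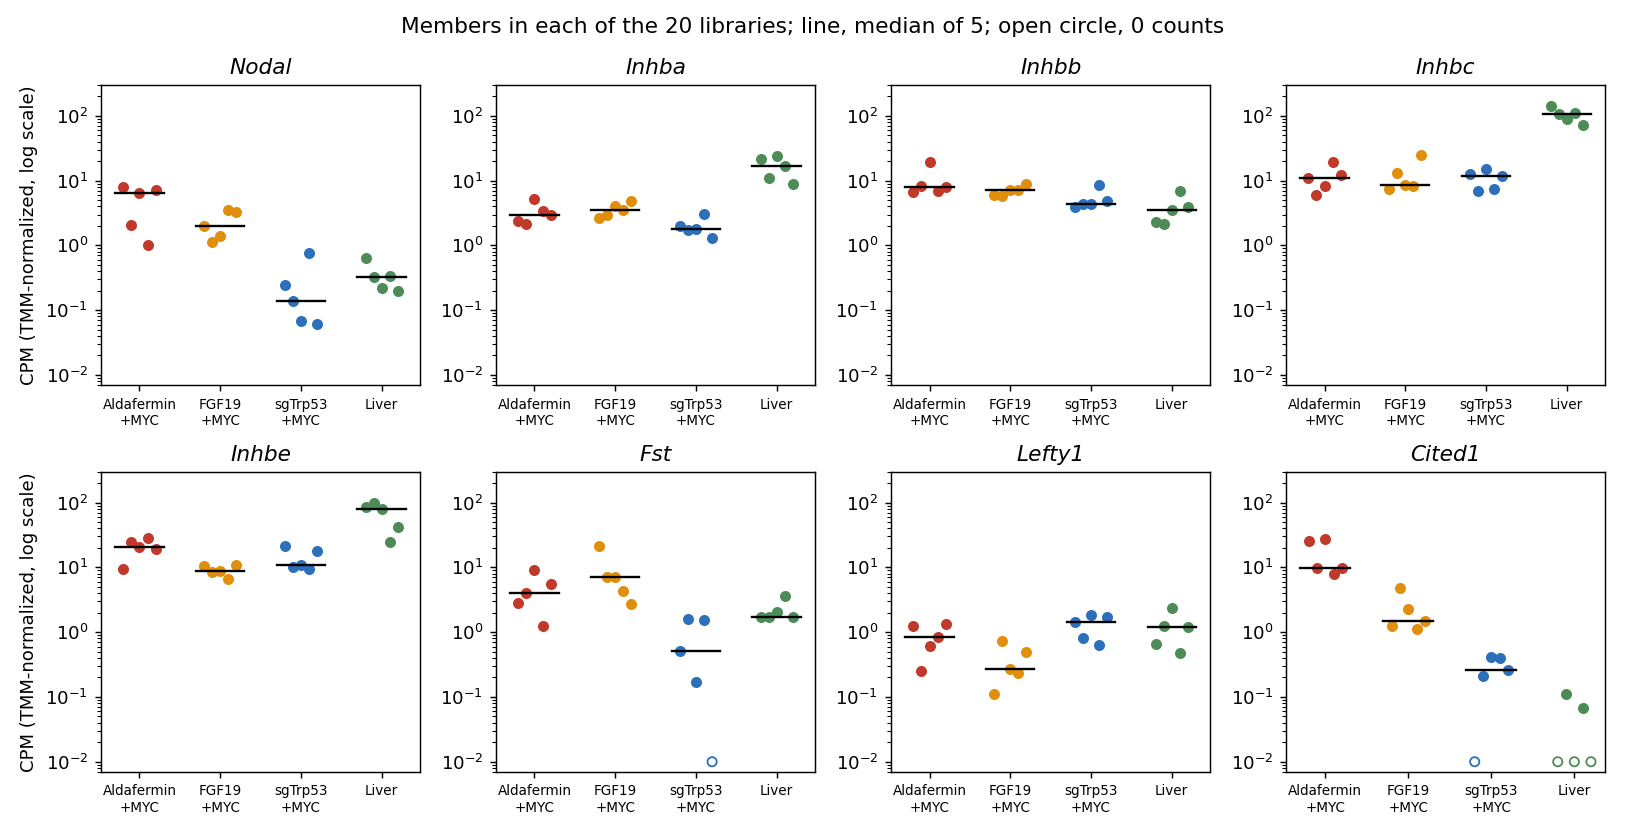
Level of 8 genes in every library, as TMM-normalized CPM on a log scale, by group of 5 libraries. The line is the group's median, and open circles at the bottom are libraries without a read. Nodal and Cited1 in Aldafermin+MYC and FGF19+MYC tumors lie above all sgTrp53+MYC tumors and livers, and Inhba and Inhbc in livers lie above all tumors. Lefty2 had no read in any library and is not drawn.

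The activin β chain genes moved in different directions. Inhba, on chromosome 13 from 16186373 to 16206206, encodes the subunit of activin A. Livers had 21.3, 11.0, 23.9, 16.9 and 8.93 CPM. In Aldafermin+MYC tumors the range was 2.13 to 5.28 CPM with a median of 2.95, in FGF19+MYC tumors 2.68 to 4.92 with a median of 3.52, and in sgTrp53+MYC tumors 1.29 to 3.08 with a median of 1.81. All tumors were below all livers. Inhba fell by 2.26 ± 0.26 on the log2 scale (SE, adjusted p = 1.78e-07) in the mean of Aldafermin+MYC and FGF19+MYC tumors, and fell by 3.05 ± 0.33 (SE, adjusted p = 1.22e-07) in the tumors with the Trp53 guide. Between the tumors it was higher with the hormone or analog by a log2 fold change of 0.79 ± 0.28 (SE), with overlapping ranges.

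Inhbb, on chromosome 1 from 119343193 to 119350021, encodes the subunit of activin B. It had 6.63, 8.21, 19.6, 6.81 and 7.94 CPM in Aldafermin+MYC tumors and 5.97, 5.75, 7.09, 7.19 and 8.79 CPM in FGF19+MYC tumors. Livers ranged from 2.13 to 7.03 CPM with a median of 3.58, and sgTrp53+MYC tumors from 3.92 to 8.58 CPM with a median of 4.37. The ranges of all groups overlapped, but Inhbb rose in the mean of Aldafermin+MYC and FGF19+MYC tumors relative to livers by a log2 fold change of 1.13 ± 0.32 (SE, adjusted p = 0.00359). The same tumors had brought Inhbb to notice beside sgTrp53+MYC tumors, and this p does not allow for that choice. For sgTrp53+MYC tumors against livers the log2 fold change was 0.46 ± 0.35 (SE, 95% interval -0.28 to 1.20, adjusted p = 0.249). Inhbb was therefore the β chain gene whose direction against livers was opposite to that of Inhba, Inhbc and Inhbe. Aldafermin+MYC replicate 3, the highest library for Inhbb, was also the highest of its group for Inhba, Fst and Cited1, and its summed level of 10 stellate cell and fibroblast markers was 2270 CPM, against 274 to 816 CPM in the rest of the group. The part of these cells in the values was not tested.

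Inhbc and Inhbe lie side by side on chromosome 10, Inhbc from 127190888 to 127206430 and Inhbe from 127184726 to 127190280, with 607 bases between them and on the same strand. Livers had 142, 105, 89.6, 111 and 72.0 CPM of Inhbc, above every tumor. Its medians were 10.9 CPM in Aldafermin+MYC, 8.48 in FGF19+MYC and 11.9 in sgTrp53+MYC tumors, with an overall tumor range from 6.08 to 24.5 CPM. Inhbc fell by 3.13 ± 0.28 on the log2 scale (SE, adjusted p = 7.06e-09) in the mean of Aldafermin+MYC and FGF19+MYC tumors and fell by 3.26 ± 0.37 (SE, adjusted p = 1.92e-07) in sgTrp53+MYC tumors. Of Inhbe, livers had 85.8, 98.6, 79.5, 24.8 and 41.8 CPM. Aldafermin+MYC tumors had 9.33, 24.8, 20.3, 28.7 and 18.9 CPM, so 1 of them exceeded the lowest liver. The FGF19+MYC tumors ranged from 6.66 to 11.1 CPM and the sgTrp53+MYC tumors from 9.30 to 21.4 CPM, all below the livers. Inhbe fell by 2.28 ± 0.28 (SE, adjusted p = 5.81e-07) in the mean of Aldafermin+MYC and FGF19+MYC tumors and fell by 2.25 ± 0.35 (SE, adjusted p = 1.43e-05) in sgTrp53+MYC tumors. Between the tumors with the hormone or analog and those with the Trp53 guide, both genes differed by less than their standard errors, with log2 fold changes of 0.13 ± 0.30 (SE) for Inhbc and -0.03 ± 0.29 (SE) for Inhbe.
The hepatocyte marker sum, given above, was also lower in all tumors than in all livers. Aldafermin+MYC replicate 4 and FGF19+MYC replicate 5, the tumors with the highest marker sums of 22500 and 29600 CPM, had the highest Inhbc of their groups, 19.5 and 24.5 CPM, and the highest Inhbe, 28.7 and 11.1 CPM. In sgTrp53+MYC tumors, replicate 1 had the highest sum, 11000 CPM, and the highest Inhbe, 21.4 CPM. The highest Inhbc of that group, 15.2 CPM, was in replicate 3, with a sum of 6520 CPM. Among livers, replicate 4 had the highest sum, 233000 CPM, but the lowest Inhbe, 24.8 CPM. Without Aldafermin+MYC replicate 4 and FGF19+MYC replicate 5, every call of a tested member against livers was kept and Fst was added. In tissue RNA, fewer cells of a type and less RNA per cell cannot be told apart.

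**Figure D2:**
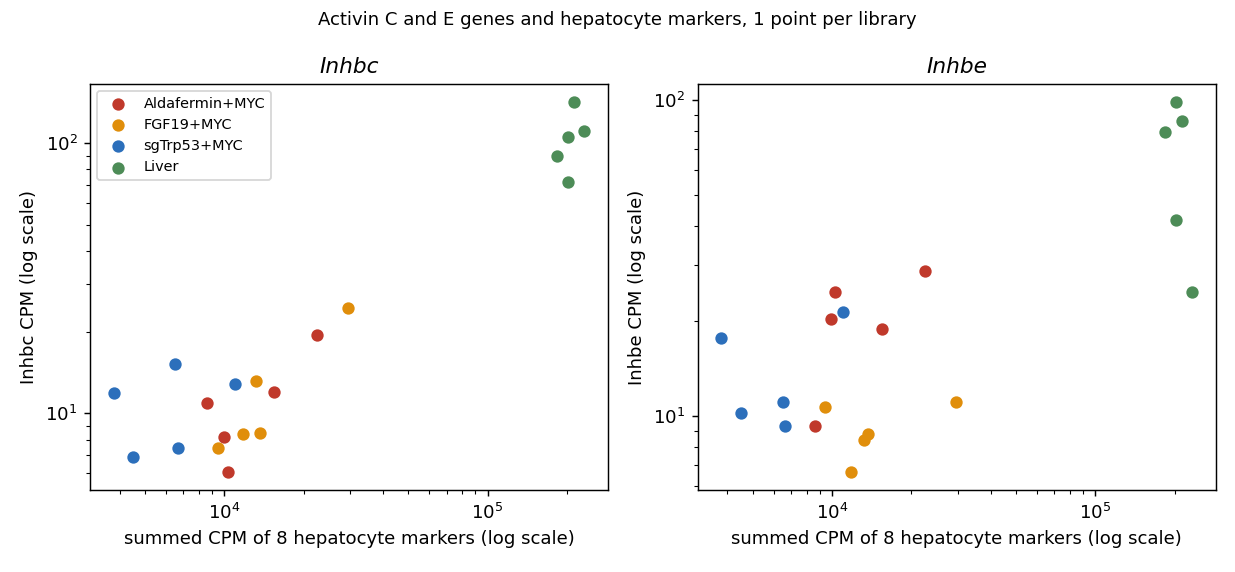
CPM of Inhbc (left) and Inhbe (right) against the summed CPM of 8 hepatocyte markers, both on log scales, with 1 point per library colored by group. Livers stand at marker sums of 184000 to 233000 CPM, and the tumors between 3800 and 29600 CPM. Among tumors of the Aldafermin+MYC and FGF19+MYC groups, the highest Inhbc is in the libraries with the highest marker sums. Among sgTrp53+MYC tumors and among livers it is in other libraries than the highest marker sum.

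Fst, on chromosome 13 from 114588731 to 114595521, encodes the extracellular inhibitor Follistatin. It had 2.82, 4.09, 8.97, 1.23 and 5.53 CPM in Aldafermin+MYC tumors and 21.7, 6.99, 7.18, 4.37 and 2.74 CPM in FGF19+MYC tumors. In sgTrp53+MYC tumors it had 0.511, 1.62, 0.173, 1.55 and 0 CPM, and in livers 1.72, 1.69, 2.08, 3.62 and 1.71 CPM. Each FGF19+MYC tumor and each liver was above each sgTrp53+MYC tumor, whereas Aldafermin+MYC overlapped with all groups. The mean of Aldafermin+MYC and FGF19+MYC tumors relative to livers had a log2 fold change of 1.53 ± 0.72 (SE, adjusted p = 0.0616), which missed the threshold and passed it in 9 of 29 settings. For sgTrp53+MYC tumors against livers it was -1.48 ± 0.80 (SE, adjusted p = 0.105). Relative to sgTrp53+MYC tumors, the log2 fold change of the other tumors was 3.01 ± 0.77 (SE), next to those of Cited1 and Nodal in size.

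Lefty1, on chromosome 1 from 180762587 to 180765971, encodes an antagonist that Nodal signaling itself induces in the embryo. Its level was low in all groups, with medians of 0.846 CPM in Aldafermin+MYC, 0.269 in FGF19+MYC and 1.43 in sgTrp53+MYC tumors and 1.20 in livers, and all ranges overlapped. It was lower in the mean of Aldafermin+MYC and FGF19+MYC tumors than in livers by 1.08 ± 0.44 on the log2 scale (SE, adjusted p = 0.032). This call rested on few reads and was lost in 7 of 29 settings, with the library totals as scale (-0.25, adjusted p = 0.617), without the filter on low counts (adjusted p = 0.111), with the replicate number as a block (adjusted p = 0.0631), and without FGF19+MYC replicate 3 (0.0503) or 4 (0.0532) or liver replicate 2 (0.0528) or 3 (0.18). Relative to sgTrp53+MYC tumors the log2 fold change was -1.19 ± 0.42 (SE), opposite in sign to that of Nodal. A predicted gene on the other strand, Gm39715, shares 535 exon bases with Lefty1 and had at most 11 reads in a library. The opposite-strand genes 4933412O06Rik, which shares 201 exon bases with Inhba, and Gm41935, which shares 122 with Inhbb, had at most 0 and 1 reads. Lefty2, on chromosome 1 from 180720635 to 180726932, had 0 reads in all 20 libraries and was not tested. A count of 0 allows up to 3 reads, or between 0.0346 and 0.215 CPM depending on the library.

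On the scale of CPM per kilobase of exon, on which levels of different genes can be set side by side, Inhbc was the highest member in livers with 31.6 ± 7.92, followed by Inhbe with 12.4 ± 5.89 and Inhba with 2.31 ± 0.906 (SD, n = 5 each). In Aldafermin+MYC tumors Cited1 was highest with 8.59 ± 5.08, followed by Inhbe with 3.84 ± 1.37, Inhbc with 3.44 ± 1.56, Inhbb with 2.29 ± 1.28 and Nodal with 2.25 ± 1.45 (SD, n = 5 each). The spreads of the last 4 overlapped. In FGF19+MYC tumors Inhbc had 3.77 ± 2.17, Fst 1.82 ± 1.60, Inhbe 1.71 ± 0.338, Inhbb 1.62 ± 0.281, Cited1 1.15 ± 0.808 and Nodal 1.03 ± 0.495 CPM per kilobase (SD, n = 5 each). The spreads of neighbors in this order overlapped. Inhbc with 3.29 ± 1.08 and Inhbe with 2.62 ± 0.999 were also the leading members in sgTrp53+MYC tumors, where Nodal had 0.117 ± 0.134 (SD, n = 5 each).

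Counted over the members, 8 of the 9 genes could be tested. The filter on low counts took CPM on library totals, without TMM factors. On that scale, Nodal, Cited1 and Lefty1 reached 1 CPM in 10, 10 and 7 of the 20 libraries. Nodal and Cited1 passed the filter through Aldafermin+MYC and FGF19+MYC tumors alone. Lefty1 reached 1 CPM on library totals in 3 Aldafermin+MYC tumors, 3 sgTrp53+MYC tumors and 1 liver. In the mean of Aldafermin+MYC and FGF19+MYC tumors against livers, the fit put 3 members higher and 4 lower. Among the 3 are Nodal and Cited1, which are described there without a test, and Inhbb, which had been noticed in the same tumors. The background was 39.2% of all tested genes higher and 34.5% lower. For sgTrp53+MYC tumors against livers, 1 member was higher and 3 lower, with a background of 36.9% higher and 33% lower. The higher member was Cited1, on the few reads given above. These 2 comparisons share the livers. Most genes tested thus changed against livers, and the members' counts say nothing particular about them. Scaling by library totals, without TMM factors, moved the median log2 fold change of all genes from 0.0956 to 0.939 in the former comparison and from 0.0713 to 0.954 in the latter. Inhba, Inhbc and Inhbe remained lower and Nodal, Cited1 and Inhbb higher than livers on both scales in the former. In the comparison of Aldafermin+MYC and FGF19+MYC tumors with sgTrp53+MYC tumors, where the members were not tested, 11.6% of all genes were higher and 12.1% lower.

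**Figure D3:**
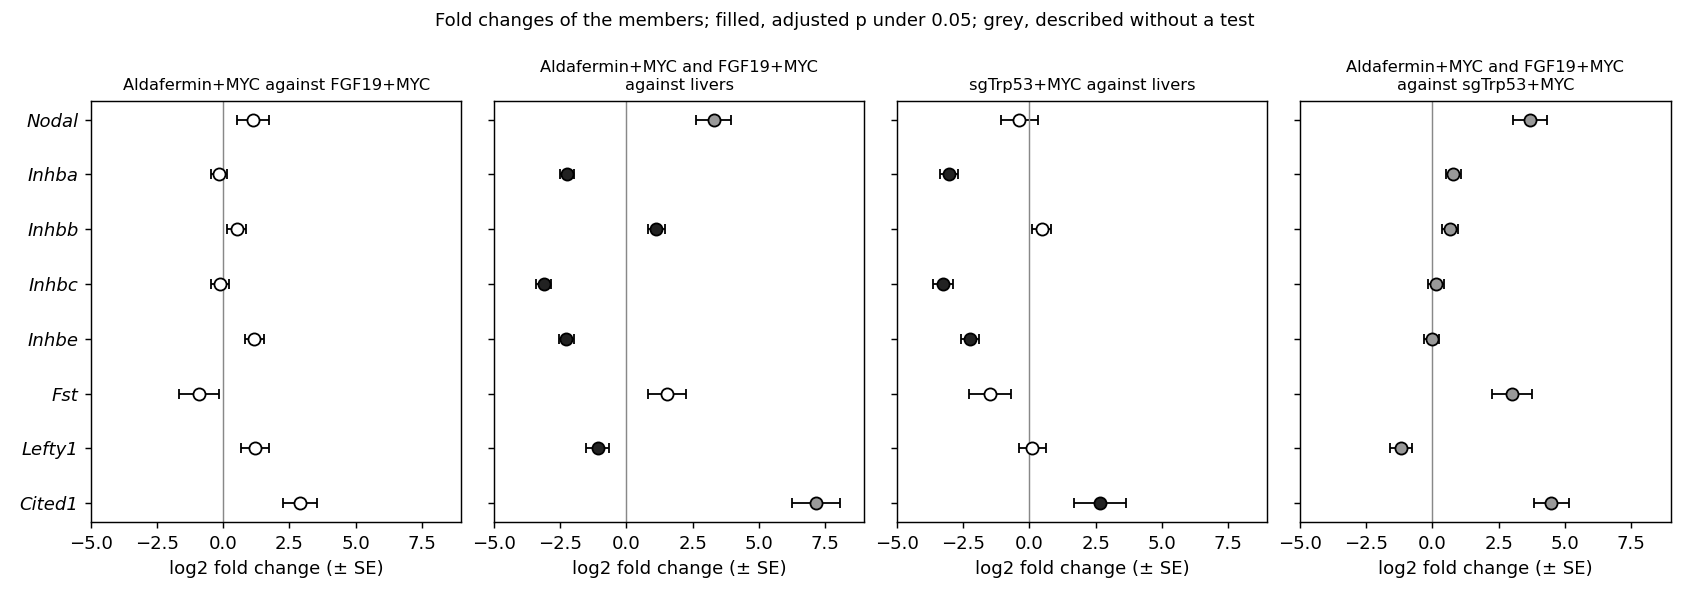
Log2 fold changes with standard errors of the 8 tested genes in the 4 comparisons. Filled circles passed an adjusted p of 0.05 in edgeR's quasi-likelihood test, open circles did not, and grey circles are described without a test. Nodal and Cited1 lie to the right of 0 against livers and against sgTrp53+MYC tumors, with log2 fold changes of 3.30 and 7.17 in the former and 3.69 and 4.50 in the latter.

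To compare the hormone with its analog, Aldafermin+MYC and FGF19+MYC tumors were tested against each other. The dose of either protein in these animals was not part of the data. No member passed the threshold, as was the case for all 14333 genes (0%), of which 1048, or 7.31%, had an unadjusted p under 0.05. The number called was 96 in DESeq2 and 59 in edgeR's likelihood ratio test. Cited1 was the member with the largest difference. Each Aldafermin+MYC tumor was above each FGF19+MYC tumor, the log2 fold change was 2.90 ± 0.65 (SE, 95% interval 1.53 to 4.27, unadjusted p = 0.000245, adjusted p = 0.127), and it was the only member called by DESeq2 (adjusted p = 0.00131) and by the likelihood ratio test (adjusted p = 0.00707). Over 29 settings its adjusted p ran from 0.00131 to 0.38, and without sgTrp53+MYC replicate 1, a library outside the comparison, the quasi-likelihood test gave an adjusted p of 0.0431. Inhbe was higher in Aldafermin+MYC tumors by 1.17 ± 0.35 (SE, 95% interval 0.43 to 1.90, adjusted p = 0.345), with 23 of the 25 pairs of tumors in this direction. For Nodal the difference was 1.12 (95% interval -0.19 to 2.43, adjusted p = 0.774) and for Lefty1 1.18 (95% interval 0.05 to 2.31, adjusted p = 0.644). The intervals of Inhba, from -0.83 to 0.49, Inhbc, from -0.86 to 0.59, and Inhbb, from -0.23 to 1.23, were narrower than that of Fst, from -2.54 to 0.71. All of these intervals are unadjusted, and none of them shows that the hormone and its analog act alike on these genes.

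Of 40 further genes of the pathway, 27 were expressed at a level that could be tested. Against livers, the mean of Aldafermin+MYC and FGF19+MYC tumors had 8 higher, 8 lower and 11 without a call, where 39.2% of all genes were higher and 34.5% lower, with a median log2 fold change of -0.05 beside 0.0956 over all genes. For sgTrp53+MYC tumors, 8 were higher, 11 lower and 8 without a call, where 36.9% of all genes were higher and 33% lower, with a median of -0.05 beside 0.0713. Among the receptors, Acvr2b, a type II receptor, rose from 13.8 ± 4.67 CPM in livers to 45.1 ± 15.8 in Aldafermin+MYC, 56.8 ± 11.6 in FGF19+MYC and 53.3 ± 21.0 in sgTrp53+MYC tumors (SD, n = 5 each), with log2 fold changes of 1.87 (adjusted p = 1.27e-05) and 1.95 (adjusted p = 2.62e-05). Acvr2a, the other activin type II receptor, fell by 0.70 (adjusted p = 3.48e-05) and fell by 0.62 (adjusted p = 0.000778) in the same order. The Cripto gene Tdgf1 had at most 14 reads in any library and none in livers.
Fstl3 and the inhibin subunit gene Inha rose in both comparisons with livers. Fstl3, a relative of Fst that also binds activins, had 0.595 ± 0.223 CPM in livers, 9.07 ± 3.62 in Aldafermin+MYC, 8.72 ± 1.52 in FGF19+MYC and 50.9 ± 28.5 in sgTrp53+MYC tumors (SD, n = 5 each). Its log2 fold change against livers was 3.91 ± 0.38 (SE, adjusted p = 1.62e-08) with the hormone or analog and 6.43 ± 0.43 (SE, adjusted p = 1.18e-10) with the Trp53 guide. Inha, whose product pairs with β chains to form inhibins, rose by 3.55 (adjusted p = 4.87e-06) and 4.12 (adjusted p = 2.22e-06). Gdf3, a ligand related to Nodal, rose by 5.09 ± 0.65 (SE, adjusted p = 7.64e-07) and 4.54 ± 0.67 (SE, adjusted p = 6.76e-06), although livers held at most 2 reads of it per library, so that the size of the change depends on the prior count. Pcsk6, a convertase that cleaves the Nodal precursor, fell by 1.34 (adjusted p = 9.09e-08) and fell by 1.91 (adjusted p = 1.58e-08).
Inside the cell, Smad7, the inhibitory SMAD that the pathway induces, fell from 22.0 ± 5.67 CPM in livers to 6.84 ± 3.25 in Aldafermin+MYC, 8.23 ± 1.05 in FGF19+MYC and 6.39 ± 1.53 in sgTrp53+MYC tumors (SD, n = 5 each), with log2 fold changes of -1.55 (adjusted p = 3.53e-06) and -1.78 (adjusted p = 9.89e-06). Smurf1, a ubiquitin ligase that acts on receptors and SMADs, fell by 1.46 (adjusted p = 3.39e-06) in Aldafermin+MYC and FGF19+MYC tumors and fell by 1.54 (adjusted p = 2.51e-05) in sgTrp53+MYC tumors. The SMAD phosphatase Ppm1a fell by 1.08 (adjusted p = 6.31e-09) and fell by 0.94 (adjusted p = 7.73e-07) in the same order. Cited2, a relative of Cited1, rose by 1.14 (adjusted p = 1.27e-05) in Aldafermin+MYC and FGF19+MYC tumors and by 1.61 (adjusted p = 8.07e-07) in sgTrp53+MYC tumors. Neither Smad2 nor Smad4 was called in any of the 4 comparisons.

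Between Aldafermin+MYC and FGF19+MYC tumors and those with the Trp53 guide, 4 of the 27 genes were higher, 5 lower and 18 without a call, where 11.6% of all genes were higher and 12.1% lower, with a median log2 fold change of 0.07 beside -0.0225 over all genes. The change furthest from 0 was that of Fstl3, which fell by 2.52 ± 0.27 (SE, adjusted p = 7.74e-06) and so ran against that of Fst. Smad3, a receptor-regulated SMAD, fell by 0.69 (adjusted p = 0.0256), and Lemd3, which binds SMADs at the nuclear membrane, fell by 0.44 (adjusted p = 0.0199). The corepressor Skil was higher by 0.82 (adjusted p = 0.00821), Pcsk6 by 0.57 (adjusted p = 0.0116) and the coactivator Crebbp by 0.67 (adjusted p = 0.0233). Without sgTrp53+MYC replicate 3 or without replicate 5, the number called dropped from 9 to 5, in both cases to Fstl3, Crebbp, Lemd3, Pcsk6 and Skil. Some of these were lost in other settings. Crebbp was not called without sgTrp53+MYC replicate 1, Lemd3 not without replicate 4, and neither Crebbp nor Pcsk6 without the filter on low counts. Between the analog and the hormone, none of the 27 was called in the quasi-likelihood test (median -0.12 beside 0.0219 over all genes), while DESeq2 and the likelihood ratio test each called 1. This was Tgfbr3, a co-receptor named here because it was the only call, with -1.47 ± 0.37 (SE, adjusted p = 0.185) in the quasi-likelihood test, and 6.90 ± 1.87 CPM in Aldafermin+MYC against 19.1 ± 8.34 in FGF19+MYC tumors (SD, n = 5 each).

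**Figure D4:**
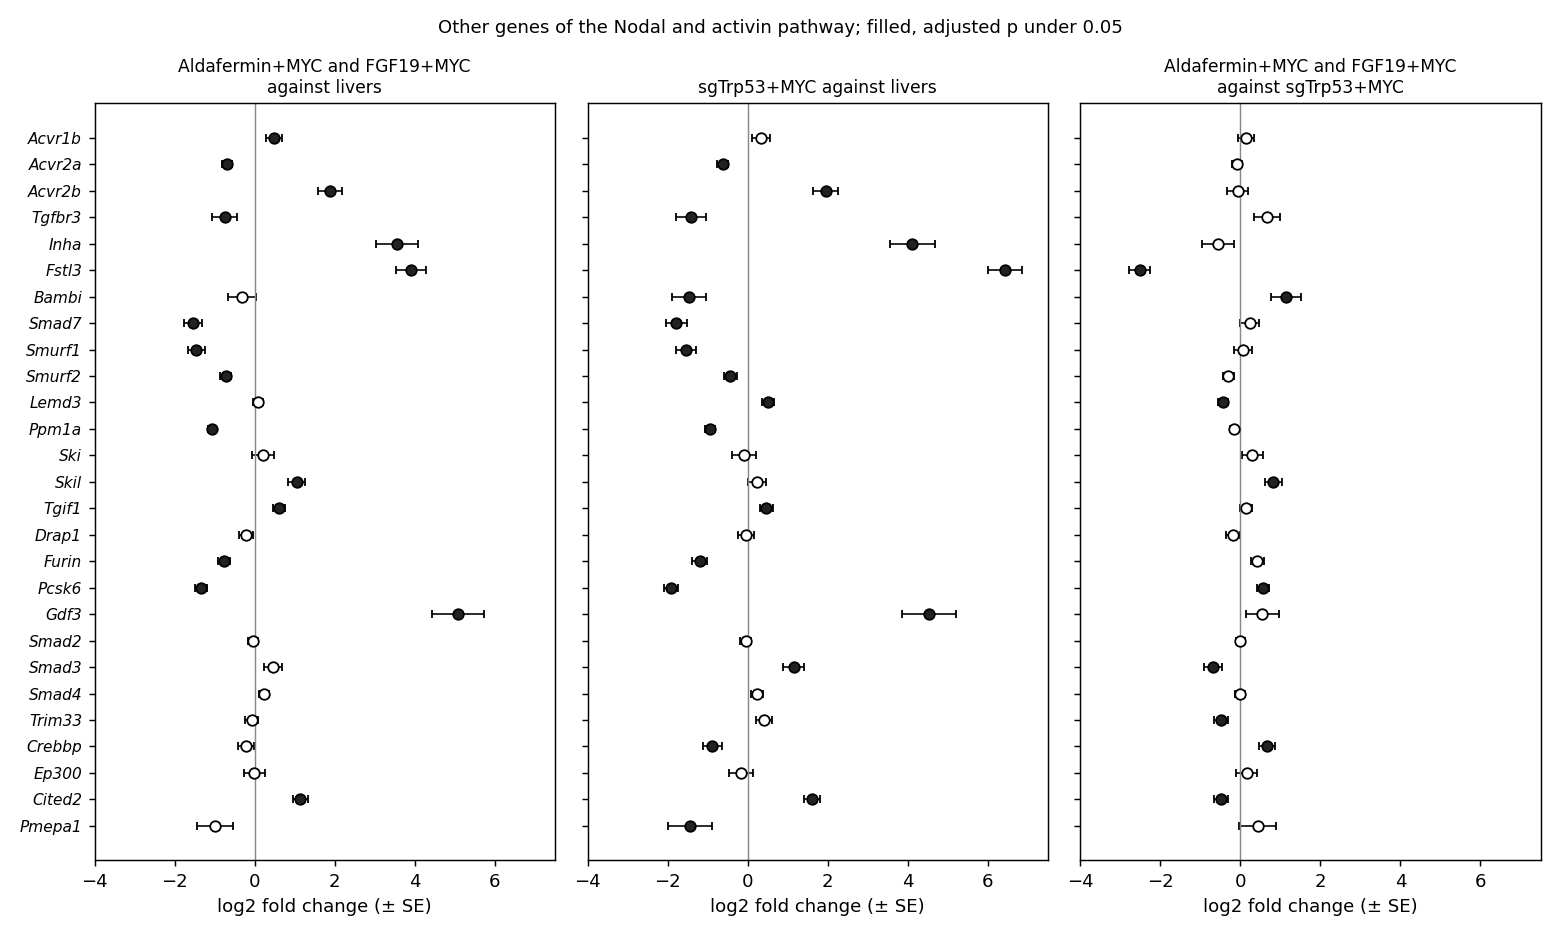
Log2 fold changes with standard errors of the 27 tested pathway genes in 3 comparisons, ordered from receptors over inhibitors, processing enzymes and effectors to targets. Filled circles passed an adjusted p of 0.05 in edgeR's quasi-likelihood test. Fstl3 is far right of 0 against livers, at 3.91 and 6.43, and left of 0, at -2.52, between the tumors.

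Genes with a pattern like that of Nodal or Cited1 were sought by the root mean square difference of gene-centered log2 CPM over the 20 libraries, among 14332 genes. Nearest to Nodal were Mdfi (0.895), Pde6c (0.896) and AI314278 (0.937). Mdfi, an inhibitor of myogenic transcription factors, had 6.62 ± 5.12 CPM in Aldafermin+MYC, 2.65 ± 0.781 in FGF19+MYC and 0.645 ± 0.227 in sgTrp53+MYC tumors and 1.16 ± 0.670 in livers (SD, n = 5 each). Nearest to Cited1 were Aqp3 (1.12), Usp29 (1.24) and Tmem130 (1.32). Aqp3, a water and glycerol channel, had 13.6 ± 6.09, 2.05 ± 1.04, 1.26 ± 1.09 and 0.0637 ± 0.0725 CPM in the same order (SD, n = 5 each). The difference between Nodal and Cited1 themselves was 1.9, which put Nodal at rank 63 in likeness to Cited1 and Cited1 at rank 5210 in likeness to Nodal. With a prior count of 0.5 these ranks were 164 and 11567, and with unit variance 366 and 114. In the profiles scaled to unit variance, 1 of the 3 names remained in each list.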

How the data were processed

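RNA of 15 liver tumors and 5 livers was prepared by the study with the TruSeq Stranded mRNA kit, aligned with HISAT2 to mm39 and counted with htseq-count on RefSeq genes; the strand setting is not given in the sources used here. The submitters' processing notes also name bcl2fastq 2.20.0.422. The authors deposited raw counts per gene, unnormalized, in 2 tables of 50559 genes, whose 5 summary lines of htseq-count were removed here (shares of reads on no gene 1.64% to 2.10% by group). All sample columns were used.

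The 14333 genes that reached 1 CPM in 5 or more libraries were analyzed in R 4.3.3 with edgeR 4.0.16. This filter took CPM on library totals. The fit used TMM factors, a single quasi-likelihood model with 4 groups, Benjamini-Hochberg adjustment and a threshold of 0.05. A standard error is the fold change divided by the root of the test statistic. Positions are from GENCODE M39 on GRCm39, whereas counting used RefSeq. Members, lists, tests and alternatives were chosen with earlier results of these data known. Beside the members, the text names the called pathway genes by smallest adjusted p, up to 3 per direction and comparison, the 3 genes most like Nodal and Cited1, counted genes whose exons overlap a member, and markers; Acvr2b, Acvr2a, Tdgf1, Smad2, Smad4, Tgfbr3, Pmepa1, Mixl1, Eomes, Lhx1 and Foxh1 were added once their values were known. Fits were checked on simulated counts. No 2 libraries of a group agreed within sampling noise (chi-square per degree of freedom at least 15.5).

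Replicate numbers come from the titles and belong to different mice. Marker lists of stellate, endothelial, macrophage, lymphocyte, biliary and skeletal muscle cells were summed per library. The endothelial sum was 56.1 to 192 CPM in tumors and 247 to 384 in livers, the macrophage sum 95.9 to 522 and 353 to 549, the lymphocyte sum 1.70 to 12.0 and 3.75 to 5.95, the biliary sum 1.81 to 779 and 44.3 to 125, and the muscle sum 4.25 to 20.5 and 5.52 to 9.76. The stellate and fibroblast sum was 182 to 2270 in tumors and 348 to 514 in livers. Alternatives were DESeq2 1.42.0, the likelihood ratio test of edgeR on tagwise dispersions, RLE size factors, no filter, only the groups compared, a replicate block, CPM on library totals, and each library left out. Fits on library totals and without the 2 tumors nearest the livers were added after seeing the data.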

Additional observations from a re-analysis of the deposited data

Results flagged for a closer look

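Dixon's test was applied to the 5 libraries of each group for each member, in 31 sets with enough reads. In 5 of them 1 library stood apart from the rest, each time on the high side. For independent sets of normally distributed values, chance would give about 1 in 20, or 1.55. CPM values need not be normal and the sets share libraries, so no excess over chance is read from this. Nodal was 0.762 CPM in sgTrp53+MYC replicate 4, against 0.0614 to 0.247 CPM in the rest of that group. Inhbb stood apart in the same library, with 8.58 CPM against 3.92 to 4.83, and in Aldafermin+MYC replicate 3, with 19.6 CPM against 6.63 to 8.21. Fst was 21.7 CPM in FGF19+MYC replicate 1, against 2.74 to 7.18 in the others, and 3.62 CPM in liver replicate 4, against 1.69 to 2.08. The lone sgTrp53+MYC tumor with more Nodal was still below the lowest Aldafermin+MYC tumor, at 1.00 CPM, and the lowest FGF19+MYC tumor, at 1.13 CPM.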

How the results depend on the processing

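No call of a member reversed its direction in any setting, and the calls of Inhba, Inhbb, Inhbc and Inhbe in Aldafermin+MYC and FGF19+MYC tumors against livers held in all 29 settings. Inhbb had been noticed beforehand in the same tumors, which no setting allows for. Against livers, log2 fold changes ran from 3.14 to 4.13 for Nodal and from -3.48 to -2.28 for Inhbc. Between the analog and the hormone, where the quasi-likelihood test called 0 members and 0 pathway genes, DESeq2 and the likelihood ratio test each called 1 member, Cited1, and 1 pathway gene, Tgfbr3. With only the groups compared in the model, 5 rather than 9 pathway genes were called against sgTrp53+MYC tumors. These were Fstl3, Lemd3, Pcsk6, Skil and Smad3, and the cause was not tested. When each library was left out in turn, the number of members called was 0 to 1 between analog and hormone, 6 to 8 for their mean against livers and 3 to 5 for sgTrp53+MYC tumors against livers, and 5 to 7 of 8 members were higher than in sgTrp53+MYC tumors. Pathway genes called were 0 to 0, 14 to 18, 17 to 21 and 5 to 9 in the same order of comparisons. The 6 to 8 members counted against livers include Nodal and Cited1, which are described there without a test. On library totals the liver mean of Inhbc was 66.6 rather than 104 CPM, and Inhbb passed the threshold in sgTrp53+MYC tumors against livers (1.35, adjusted p = 0.00261), as it did without liver replicate 4 (0.78, adjusted p = 0.0482).

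In a fit with the replicate number as a block, 6 rather than 7 members were called in Aldafermin+MYC and FGF19+MYC tumors against livers, and 8 rather than 9 pathway genes against sgTrp53+MYC tumors. Both member counts include Nodal and Cited1, whose difference from livers in these tumors is described without a test. The samples share only a number: of 30 pairs with the same number, 6 had deviations correlated above 0.1 (range -0.333 to 0.333). The block lost the call of Lefty1 against livers and no other call of a member. Read numbers limit Lefty1, Lefty2, and Nodal and Cited1 in livers.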

Other observations

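Of the 7 pathway targets listed, 1, Pmepa1, passed the filter on low counts. It had 0.992 to 7.92 CPM in Aldafermin+MYC, 0.279 to 5.45 in FGF19+MYC and 1.16 to 3.39 in sgTrp53+MYC tumors and 4.46 to 8.13 in livers (n = 5 each). In edgeR's quasi-likelihood test it fell by 1.43 ± 0.55 on the log2 scale (SE, adjusted p = 0.026) in sgTrp53+MYC tumors against livers, and the mean of Aldafermin+MYC and FGF19+MYC tumors against livers missed the threshold (adjusted p = 0.0546). Mixl1 had a mean of 0.182 CPM in Aldafermin+MYC, 0.184 in FGF19+MYC and 0.0299 in sgTrp53+MYC tumors and no read in livers. Eomes had means of 0.396, 0.268, 2.67 and 0.0588 CPM in the same order, with 12.1 CPM in its highest sgTrp53+MYC tumor. Lhx1 had means of 0.0168, 0.0294, 0.337 and 0.0162 CPM, with 103 reads in its highest sgTrp53+MYC tumor. Without the filter, Eomes and Lhx1 were called between Aldafermin+MYC and FGF19+MYC tumors and sgTrp53+MYC tumors in edgeR's quasi-likelihood test. Foxh1, the DNA-binding partner of SMADs in Nodal signaling, did not exceed 0.112 CPM in any library.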
